A study of Mus musculus with 24 samples.

Results

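The comparison described here set monocytic myeloid-derived suppressor cells (M-MDSCs) labelled IL-6KO, strain B6.129S2-Il6tm1Kopf/J, against M-MDSCs labelled wild type, strain C57BL/6, both from lymphodepleted mice. Its members are the 3 KO-labelled and the 3 WT-labelled lymphodepleted M-MDSC libraries, 6 of the 24 libraries of the series. They were chosen by their labels. The 11052 of 23479 genes with a normalized read count of 10 or more in at least 3 of these 6 libraries were tested. All mice, of both labels, carried B16 melanoma tumours that were established at over 25 mm2 when the lymphodepleted groups received cyclophosphamide and fludarabine, a pair of drugs that deplete lymphocytes. MDSCs were sorted from the spleen 7 days after that treatment, with a stated purity of over 99%, and libraries were made from 100 ng of total RNA with probe-based depletion of ribosomal RNA. The other libraries of the series are untreated M-MDSCs and, from both treatments, polymorphonuclear MDSCs (PMN-MDSCs), each with both genotype labels and 3 libraries a group. The series' text gives 3 mice for the WT-labelled lymphodepleted group and no number for the KO-labelled one, and does not tie libraries to mice, so p-values measure the spread between libraries, part of which may be technical. Age and sex of the mice are not given there either. The line is a germline knockout by its label, so any cell of the mouse, and not only the sorted one, would carry the allele.

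M-MDSCs are immature cells of the monocyte lineage that accumulate in tumour-bearing hosts and can suppress T cells. Interleukin-6 (IL-6) is a cytokine that binds IL6RA and signals through the shared subunit IL6ST (gp130), the kinases JAK1 and JAK2 and the transcription factor STAT3. STAT3 raises genes such as Socs3, which feeds back on the receptor, and is known for its part in myeloid expansion and in the survival of MDSCs. The study's design placed the genotype labels within each treatment, which puts the question of what differs between the labels once the mice had been lymphodepleted.

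The 6 libraries held 7418606 to 10017014 reads in genes in the KO-labelled group and 7815872 to 11193088 reads in the WT-labelled group. Rn45s, a precursor of ribosomal RNA, took 8.50 to 19.8% of the reads in KO-labelled libraries and 7.53 to 14.4% in WT-labelled libraries. Values are normalized read counts, that is reads divided by a factor per library, so they are comparable between libraries for 1 gene but not between genes. Spearman correlations between libraries over the tested genes were 0.964 to 0.972 within the KO-labelled group, 0.973 to 0.975 within the WT-labelled group and 0.959 to 0.983 across the labels. The M-MDSC label was checked against markers. The sum of the PMN markers Cxcr2, Csf3r, Retnlg and Mmp8 was 1843 to 2489 in KO-labelled and 2753 to 3161 in WT-labelled lymphodepleted M-MDSCs. In lymphodepleted PMN-MDSCs it was 45157 to 87773 in KO-labelled and 26100 to 56226 in WT-labelled libraries. F13a1, a monocyte transglutaminase, was at 7366, 7854 and 11398 in KO-labelled and 9196, 8825 and 10182 in WT-labelled M-MDSC libraries. In PMN-MDSCs it was at 65.2, 54.3 and 81.5 in KO-labelled and 356, 683 and 449 in WT-labelled libraries, well below every M-MDSC library. The summed level of the 6 monocyte markers as a whole (Ly6c2, Ccr2, Csf1r, Cd14, F13a1 and Itgam) was not higher in M-MDSCs than in PMN-MDSCs, with 20947 to 30610 over the 6 M-MDSC libraries and 23672 to 31330 over the 6 lymphodepleted PMN-MDSC libraries. Most of the PMN-MDSC sum was Itgam, with means of 22510 (KO-labelled) and 23345 (WT-labelled), against 4949 and 6025 in M-MDSCs. Ccr2 went the other way, with means of 4837 and 6437 in M-MDSCs, against 127 and 239 in PMN-MDSCs. So did Csf1r, with 5400 and 5534 in M-MDSCs, against 2835 and 1898. Ly6g was not analysed here.

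The targeted gene went against its label. Il6, the cytokine gene itself (chromosome 5, 30013114 to 30019975, build GRCm38, plus strand), had normalized counts of 38.9, 16.2 and 45.3 in the KO-labelled libraries, against 0, 3.87 and 1.72 in the WT-labelled libraries. Those values rest on 136 reads in the KO-labelled group and 7 in the WT-labelled group, and no KO-labelled library was as low as a WT-labelled one. The log2 difference was 3.74 ± 0.65 (SE), with an adjusted p of 0.0329 in limma. The same order stood in untreated M-MDSCs, with 41.2, 38.3 and 33.3 in KO-labelled and 0, 0 and 0.944 in WT-labelled libraries, and in lymphodepleted PMN-MDSCs, with 131, 64.5 and 203 in KO-labelled libraries and no read in any WT-labelled library. A gene count does not say which part of the transcript the reads come from, so reads of a disrupted Il6 transcript and reads of an intact one cannot be told apart, and the count does not check whether the allele is inactive. Every direction below is therefore that of the libraries labelled KO against the libraries labelled WT.

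In lymphodepleted M-MDSCs 23 of 11052 genes passed an adjusted p of 0.05 (0.208% of those tested), 17 of them higher (0.154%) and 6 lower (0.0543%) in the KO-labelled libraries. Among the higher genes were lymphocyte signalling genes (Txk, Il18r1, Gimap6), the survival gene Bcl2 and the collagen receptor gene Itga2. Among the lower ones were the laminin gene Lamc1 and the matrix gene Ecm1. Most of the transcriptome lay close between the labels: the median absolute log2 difference was 0.18, 86.3% of genes differed by less than 0.5 and 369 differed by 1 or more. At an unadjusted p of 0.05, 988 genes passed (8.94%), 529 higher (4.79%) and 459 lower (4.15%). All 23 called genes had no overlap between the groups, which was so for 1226 of all tested genes (11.1%), 660 of them higher (5.97%) and 566 lower (5.12%). Of all tested genes 5553 had a log2 difference above 0 (50.2%) and 5499 below 0 (49.8%).

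The count of 23 rested on individual libraries. It was 56 without KO-labelled library 2, 54 without WT-labelled library 1, 16 without WT-labelled library 2 and 6 without WT-labelled library 3. Without KO-labelled library 1, limma called 0 genes, with 930 at an unadjusted p of 0.05, and without KO-labelled library 3 it called 0, with 1424 at that p. The 23 genes kept their sign in each of these fits. On the reads recovered from the normalized counts, edgeR called 22 genes, all of them among the 23, and DESeq2 called 173, with all 23 among them. limma called 0 genes in a fit of the 6 libraries alone, with 640 at an unadjusted p of 0.05 and a smallest adjusted p of 0.269, 1 in a fit of all 24 libraries and 7 with the replicate number as a block. The main fit took 1 spread per gene from all 12 M-MDSC libraries, so each SE and p of this comparison also rests on the untreated ones. Library weights, which are higher where the spread is smaller, were 0.602 to 0.839 in the lymphodepleted and 0.606 to 2.31 in the untreated M-MDSC libraries. With these weights limma called 14 genes.

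**Figure D1:**
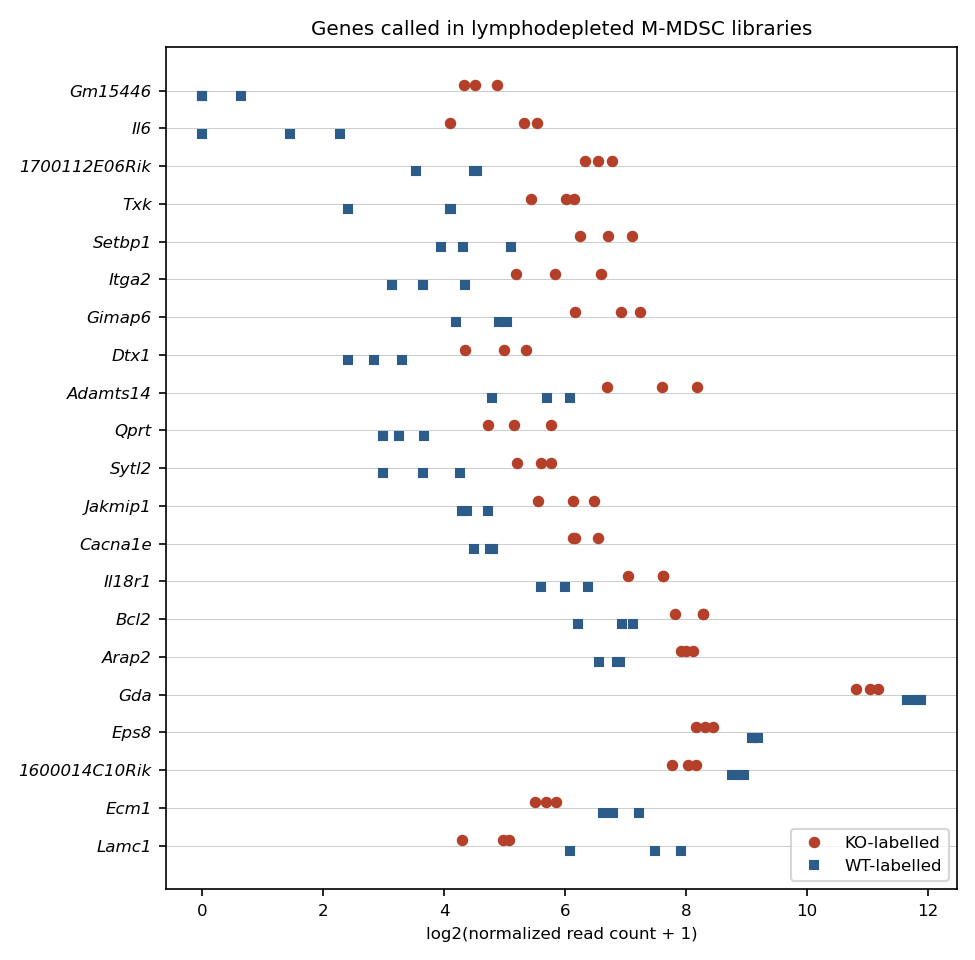
Normalized read counts of 21 of the 23 called genes as log2(count + 1), 1 point per lymphodepleted M-MDSC library, with KO-labelled libraries as circles and WT-labelled libraries as squares, ordered by the log2 difference. In each of the genes shown the 3 KO-labelled points lie on 1 side of the 3 WT-labelled points, above them for 16 genes and below them for 5.

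Beyond Il6, the receptor and signalling genes of the IL-6 pathway gave no call. Of 23 pathway genes 20 were tested, 1 was called (Il6), 5 lay above 0 and 15 below, and the median log2 difference was -0.10, against 0.0017 over all tested genes. Il6ra, the ligand-binding receptor, had 2526, 1821 and 2074 in KO-labelled and 2132, 2542 and 2271 in WT-labelled libraries, which overlapped, and a log2 difference of -0.12 ± 0.15. Il6st, the gp130 subunit, had 1295, 1394 and 1573 in KO-labelled and 1661, 1977 and 1558 in WT-labelled libraries, which overlapped as well, with a log2 difference of -0.28 ± 0.13. Jak2, a kinase bound to gp130, differed by 0.01 ± 0.14.

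Stat3, the transcription factor of the pathway, had 1730, 1514 and 1438 in KO-labelled libraries, against 2239, 2135 and 1949 in WT-labelled libraries. The groups did not overlap, but the log2 difference of -0.44 ± 0.14 did not pass the test (limma adjusted p 0.312). Socs3, the feedback inhibitor that STAT3 induces, had 306, 126 and 165 in KO-labelled libraries, against 362, 528 and 297 in WT-labelled libraries. KO-labelled library 1 reached above the lowest WT-labelled library, and the log2 difference of -1.05 ± 0.35 had an adjusted p of 0.327. Among 24 genes known to be induced through STAT3, of which 22 were tested, limma called 0, with 1 higher and 4 lower at an unadjusted p of 0.05, and edgeR and DESeq2 called 0 too. Of the 22, 17 lay below 0 and 5 above, with a median of -0.33, which was -0.33 to -0.18 without 1 library and smaller than its SD of 0.48 between replicates. The 3 with the smallest p were Il4ra, the IL-4 receptor chain, at 954, 786 and 657 in KO-labelled and 1051, 1468 and 1073 in WT-labelled libraries, Bcl3, an NF-kB cofactor, and Batf, an AP-1 factor. Bcl3 had 161, 106 and 179 in KO-labelled and 253, 218 and 215 in WT-labelled libraries. Batf had 38.0, 38.1 and 39.2 in KO-labelled and 81.0, 57.3 and 62.9 in WT-labelled libraries. None of these 3 genes overlapped between the labels, and none was called, with adjusted p of 0.261 for Il4ra, 0.315 for Bcl3 and 0.349 for Batf.

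**Figure D2:**
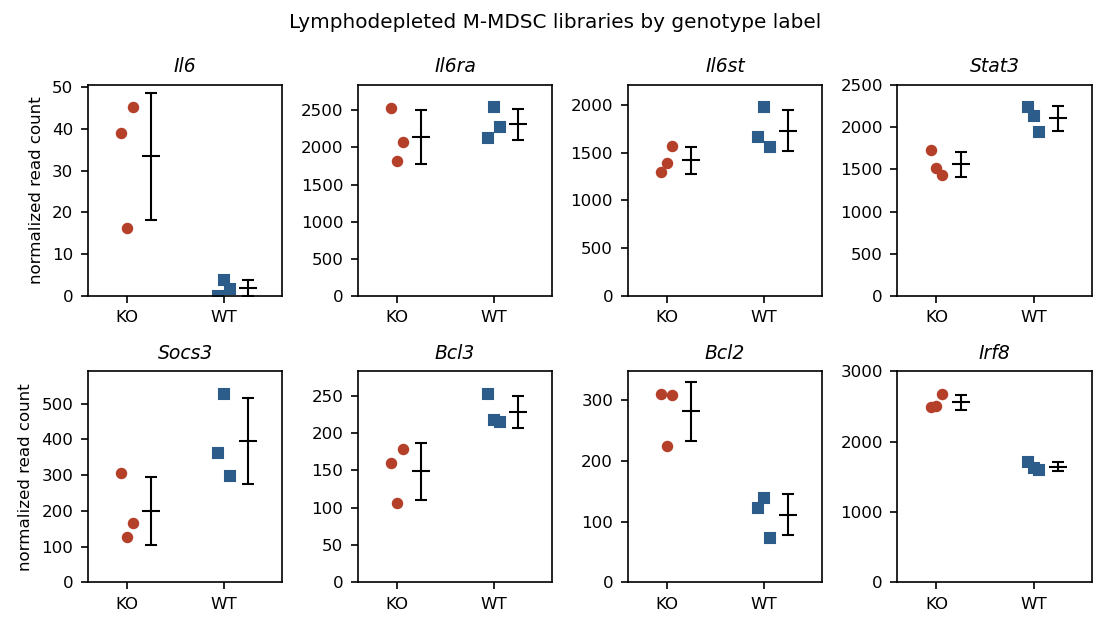
Normalized read counts of Il6, Il6ra, Il6st, Stat3, Socs3, Bcl3, Bcl2 and Irf8 in the 3 KO-labelled (left) and 3 WT-labelled (right) lymphodepleted M-MDSC libraries, with the mean and SD beside the points and each axis starting at 0. Il6, Bcl2 and Irf8 sit higher and Stat3 and Bcl3 lower in the KO-labelled libraries without overlap, and of these Il6 and Bcl2 passed the test.

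The start regions of Socs3 and of the called genes Gimap6 and Il18r1 are shown because they hold the letters TTCNNNGAA, the core that STAT factors are known to bind. Each is a RefSeq window (GRCm38.p6) from 250 bases before to 50 bases after a start site of the gene, 5′ to 3′ on the gene's strand, with each match in capitals. Some genes have more than 1 window (32851 windows for 27025 genes), and the first window with a match is shown. A gene counts as holding the motif if any of its windows does. The Socs3 and Il18r1 windows lie inside the gene spans used here, 117966079 to 117970336 and 40465552 to 40500854. Socs3 is read from the minus strand of chr11:117969317-117969616, Gimap6 from the minus strand of chr6:48708195-48708494 and Il18r1 from the plus strand of chr1:40465756-40466055.
Socs3: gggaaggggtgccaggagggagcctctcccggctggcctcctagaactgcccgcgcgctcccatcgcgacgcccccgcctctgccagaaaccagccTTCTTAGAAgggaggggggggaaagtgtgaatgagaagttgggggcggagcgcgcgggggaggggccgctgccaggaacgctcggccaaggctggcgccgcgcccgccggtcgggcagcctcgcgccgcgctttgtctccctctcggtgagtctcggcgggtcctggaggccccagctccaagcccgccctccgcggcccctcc
Gimap6: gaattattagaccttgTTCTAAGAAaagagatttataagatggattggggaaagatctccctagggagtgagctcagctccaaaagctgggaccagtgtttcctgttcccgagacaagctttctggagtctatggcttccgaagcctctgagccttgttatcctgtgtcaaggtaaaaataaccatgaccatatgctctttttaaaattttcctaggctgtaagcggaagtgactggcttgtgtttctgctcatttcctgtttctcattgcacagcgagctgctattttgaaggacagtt
Il18r1: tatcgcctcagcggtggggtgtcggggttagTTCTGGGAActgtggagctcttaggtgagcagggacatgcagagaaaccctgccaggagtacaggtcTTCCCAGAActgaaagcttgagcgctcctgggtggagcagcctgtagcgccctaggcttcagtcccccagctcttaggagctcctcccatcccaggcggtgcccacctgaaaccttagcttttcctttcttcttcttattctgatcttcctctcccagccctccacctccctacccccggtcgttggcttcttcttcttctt
The search read both strands, and the motif equals its own reverse complement. It was found in 4 of the 17 called genes with a window (23.5%: Gimap6, Gm15446, Il18r1 and Qprt), in 2 of 20 pathway genes (Cish and Socs3), in 1 of 19 STAT3-induced genes (Fgl2) and in 742 of 8847 tested genes with a window (8.39%). A match is a run of letters and not a measured site.

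The genes that rose in the KO-labelled libraries included genes known from T and natural killer (NK) cells. Txk, a Tec family kinase of these cells, had 70.3, 42.1 and 64.0 in KO-labelled libraries, against 16.1, 16.2 and 4.31 in WT-labelled libraries, a log2 difference of 2.33 ± 0.41 (limma adjusted p 0.0329). Gimap6, a GTPase of lymphocytes, had 121, 70.5 and 150.2 in KO-labelled libraries, against 28.8, 31.7 and 17.2 in WT-labelled libraries (2.07 ± 0.28, adjusted p 0.00996). For both genes KO-labelled library 2 was the lowest of its group, and it still lay above every WT-labelled library. Il18r1, the ligand-binding chain of the IL-18 receptor, had 195, 131 and 197 in KO-labelled and 82.1, 62.7 and 47.4 in WT-labelled libraries (1.44 ± 0.20, adjusted p 0.0129). Itga2, the alpha chain of a collagen-binding integrin that also marks mouse NK cells, had 56.0, 35.7 and 95.3 in KO-labelled and 19.4, 11.6 and 7.76 in WT-labelled libraries (2.16 ± 0.36, adjusted p 0.0310). Sytl2, which docks secretory vesicles at the membrane, had 36.1, 47.8 and 53.7 in KO-labelled and 18.3, 11.6 and 6.90 in WT-labelled libraries. Jakmip1, whose product binds JAK family kinases and microtubules, had 69.3, 46.2 and 88.1 in KO-labelled and 25.5, 18.6 and 19.8 in WT-labelled libraries. Dtx1, a regulator of Notch signalling, had 39.9, 30.8 and 19.3 in KO-labelled and 8.87, 6.19 and 4.31 in WT-labelled libraries. These last 3 genes rose by 1.90 ± 0.30, 1.59 ± 0.26 and 2.04 ± 0.34 log2 units in that order, with adjusted p of 0.0235, 0.0266 and 0.0310.

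Lymphocyte and dendritic cell markers moved with these genes. The summed level of 6 NK markers (Ncr1, Klrb1c, Eomes, Gzma, Prf1 and Tbx21) was 813, 350.0 and 1121 in KO-labelled libraries, against 315, 214 and 147 in WT-labelled libraries. That of 5 T cell markers was 181, 82.6 and 282 in KO-labelled and 66.0, 58.8 and 50.9 in WT-labelled libraries, and that of 5 dendritic cell markers was 617, 387 and 548 in KO-labelled and 258, 224 and 214 in WT-labelled libraries. None of these 3 sums overlapped between the labels, and each was higher in the KO-labelled libraries. The PMN marker sum given above, most of it Csf3r, was lower in them without overlap. The sums of 5 B cell markers overlapped, with 54.1, 60.8 and 81.5 in KO-labelled and 68.2, 34.0 and 52.6 in WT-labelled libraries, as did those of 6 monocyte, 5 primary granule, 5 macrophage, 3 platelet, 2 plasma cell, 4 erythroid and 4 melanoma markers. The haemoglobin genes Hba-a1 and Hbb-bs were at 0 in all 6 libraries, as were the pigment genes Tyrp1, Dct and Mlana. In sorted bulk RNA, more cells of another type and more RNA of its genes per cell cannot be told apart. The part of the T cell, dendritic cell and PMN marker levels in the differences was not tested.

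**Figure D3:**
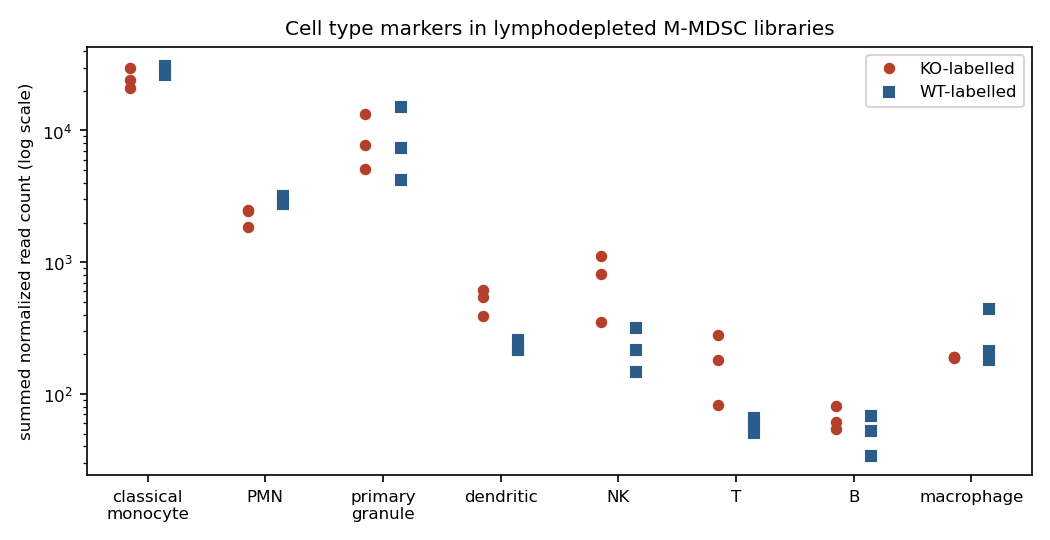
Summed normalized read count, on a log axis, of the markers of 8 cell types in each lymphodepleted M-MDSC library, with KO-labelled libraries as circles left of the WT-labelled libraries as squares. The NK, T and dendritic sums of the 3 KO-labelled libraries lie above those of the 3 WT-labelled libraries, the PMN sums lie below, and the other 4 overlap.

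The wider lymphoid lists showed the same order. Of 18 NK cell genes 16 were tested: all 16 lay above 0, limma and edgeR called 2 (Itga2 and Txk), DESeq2 called 13, and 15 passed an unadjusted p of 0.05 in limma. Of the 16, 11 were higher without overlap, where 5.97% of all tested genes were, and the median log2 difference was 1.59. All 8 genes of the Gimap family lay above 0 with a median of 1.65, and limma and edgeR called Gimap6, while DESeq2 called 5 (Gimap1, Gimap3, Gimap4, Gimap6 and Gimap8). Of 20 T cell genes 15 were tested, all 15 lay above 0 with a median of 1.15, and limma called 0, with 11 at an unadjusted p of 0.05. For the T cell list edgeR also called 0 and DESeq2 called 4. Among its smallest p were those of Zap70, the T cell receptor kinase, at 50.3, 26.7 and 45.9 in KO-labelled and 14.4, 13.2 and 12.1 in WT-labelled libraries (log2 difference 1.52 ± 0.30, limma adjusted p 0.0598) and Cd8a, the co-receptor of cytotoxic T cells (1.86 ± 0.40). Of 15 B cell genes 8 were tested and 7 lay above 0, with a median of 0.78 and no call by limma, edgeR or DESeq2, and 2 genes at an unadjusted p of 0.05 in limma.

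The differences were also fitted with the NK marker level held as a covariate, an alternative chosen after the data had been seen. With the log2 NK marker sum as a covariate in the 12 M-MDSC libraries, the median of the NK list was 0.19, that of the Gimap family 0.22 and that of the T cell list 0.18, against 1.59, 1.65 and 1.15 without it, though the NK list shares genes with the covariate. The NK marker sum itself did not overlap between the labels in either treatment. The fit therefore cannot cleanly part the label from the marker level, for these lists or for any gene. Of the 23 called genes 8 were smaller by over 1.5 times in that fit, among them Itga2 (0.72 with, 2.16 without), Adamts14 (0.81 with, 1.97 without), Il18r1 (0.74 with, 1.44 without) and Bcl2 (0.84 with, 1.36 without). The other 15 stayed within that factor or were larger, among them Il6 (3.48 with, 3.74 without), Setbp1 (1.99 with, 2.23 without), Arap2 (1.47 with, 1.24 without) and Lamc1 (-2.18 with, -2.38 without). All 23 kept their sign, 4 of them were called, and the median standard error over all genes was 0.33 with and 0.21 without the covariate. That fit called 93 genes in all, 14 higher and 79 lower.

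Bcl2, the anti-apoptotic founder of its family, rose. It had 311, 225 and 309 in KO-labelled libraries, against 123, 138 and 73.3 in WT-labelled libraries, and the lowest KO-labelled library lay well above the highest WT-labelled one. The log2 difference was 1.36 ± 0.22 with an adjusted p of 0.0235 in limma. Of 18 family genes 15 were tested, Bcl2 was the 1 called, and 8 lay above and 7 below 0 with a median of 0.14. Bcl2l1, which encodes the survival protein BCL-XL, had 186, 203 and 176 in KO-labelled and 156, 173 and 186 in WT-labelled libraries, which overlapped (0.14 ± 0.16). Mcl1, another survival gene of myeloid cells, had 5640, 4389 and 4964 in KO-labelled and 6364, 6322 and 4965 in WT-labelled libraries (-0.23 ± 0.16). Among 16 tested death receptor and caspase genes limma and edgeR called 0, with 2 at an unadjusted p of 0.05 in limma, and DESeq2 called Fasl. Fasl, the death ligand of cytotoxic lymphocytes, had 38.0, 14.6 and 31.4 in KO-labelled and 6.10, 7.74 and 0.862 in WT-labelled libraries without overlap (2.47 ± 0.51, limma adjusted p 0.0618), and its receptor Fas differed by 0.05 ± 0.26.

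The other genes that rose have varied roles. Setbp1, which encodes a chromatin-associated partner of the SET protein, had 137, 74.5 and 103 in KO-labelled and 14.4, 33.3 and 19.0 in WT-labelled libraries (2.23 ± 0.29, limma adjusted p 0.00984). Adamts14, a protease that trims procollagen, had 289.7, 103 and 192 in KO-labelled and 51.0, 66.5 and 26.7 in WT-labelled libraries (1.97 ± 0.35, adjusted p 0.0384). Arap2, a regulator of ARF family GTPases, had 241, 276 and 254 in KO-labelled and 93.2, 115 and 119 in WT-labelled libraries (1.24 ± 0.16, adjusted p 0.00984). The spread within each label was small for Arap2, and its adjusted p was the smallest reached by any gene, shared with Setbp1 and Gm15446. Cacna1e, a voltage-gated calcium channel subunit, rose by 1.59 ± 0.25, and Qprt, an enzyme of NAD synthesis from tryptophan, rose by 1.92 ± 0.35. The gene model Gm15446, named here after its values were seen, had 19.0, 21.9 and 28.4 in KO-labelled and 0.555, 0 and 0 in WT-labelled libraries. That is 94 reads against 1, a ratio of 101 with an exact 95% interval of 17.8 to 4048 that covers counting error only (limma adjusted p 0.00984). The gene model 1700112E06Rik, also named after its values were seen, had 108, 92.4 and 79.0 in KO-labelled and 10.5, 21.7 and 22.4 in WT-labelled libraries (2.35 ± 0.32, adjusted p 0.0105).

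The 6 genes that fell in the KO-labelled libraries include matrix genes. Lamc1, the gamma chain of laminins, had 30.4, 18.6 and 32.6 in KO-labelled libraries, against 66.6, 178 and 241 in WT-labelled libraries (-2.38 ± 0.41, limma adjusted p 0.0329). WT-labelled library 1 was much closer to the KO-labelled libraries than the other 2 were. Ecm1, a secreted matrix protein, had 50.3, 44.6 and 56.7 in KO-labelled and 149, 109.9 and 98.3 in WT-labelled libraries (-1.20 ± 0.21, adjusted p 0.0329). Gda, which deaminates guanine, had 1798, 2100 and 2316 in KO-labelled and 3204, 3785 and 3600 in WT-labelled libraries, and Eps8, an actin-capping substrate of receptor kinases, had 347, 317 and 287 in KO-labelled and 542, 584 and 553 in WT-labelled libraries. Both differences were below 1 log2 unit, -0.77 ± 0.14 for Gda and -0.82 ± 0.14 for Eps8, with little spread within a label. The gene 1600014C10Rik, named after its values were seen, differed by -0.89 ± 0.15 (adjusted p 0.0329). Of 34 genes of matrix and adhesion 27 were tested, with 2 called higher (Adamts14 and Itga2) and 2 called lower (Lamc1 and Ecm1), so the list moved in both directions, and its median was -0.26.

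Genes of the monocyte program itself had no call in limma. Of 20 classical monocyte genes 19 were tested, 18 lay below 0 and 1 above, with a median of -0.35. limma and edgeR called 0 of them, limma gave 1 higher and 6 lower at an unadjusted p of 0.05, and DESeq2 called 1 higher and 3 lower. Hp, which encodes the haemoglobin scavenger haptoglobin, had 1452, 2017 and 1682 in KO-labelled and 2732, 2707 and 4145 in WT-labelled libraries (-0.88 ± 0.19, limma adjusted p 0.0681). Fcgr1, the high-affinity IgG receptor, had 297, 156 and 209 in KO-labelled and 616, 477 and 579 in WT-labelled libraries (-1.37 ± 0.31, adjusted p 0.0872). Neither gene overlapped between the labels. Irf8, the transcription factor that directs monocyte and dendritic cell fate, was the 1 member above 0, with 2487, 2502 and 2682 in KO-labelled libraries, against 1713, 1626 and 1595 in WT-labelled libraries, and little spread within either label (0.64 ± 0.15, adjusted p 0.0916).

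Genes of the monocyte surface were measured in every library. Ly6c2 had 487, 592 and 1403 in KO-labelled and 1723, 470.4 and 738 in WT-labelled libraries, and Ccr2, the receptor for egress from the marrow, had 4377, 3366 and 6768 in KO-labelled and 7506, 6089 and 5717 in WT-labelled libraries. Csf1r, the growth factor receptor of the lineage, had 6823, 3965 and 5412 in KO-labelled and 6195, 5647 and 4761 in WT-labelled libraries. The groups overlapped for each of these 3 genes, and the log2 differences were -0.19 ± 0.44 for Ly6c2, -0.46 ± 0.21 for Ccr2 and -0.06 ± 0.22 for Csf1r. The alarmin genes S100a8 and S100a9 ranged over several-fold within each label, S100a8 with 759.9, 2588 and 1910 in KO-labelled and 5309, 856 and 3287 in WT-labelled libraries. Of the genes by which MDSCs suppress T cells, Arg1 and Nos2 were near 0 in the 6 libraries and were not tested. Cd274, the gene of PD-L1, had 278, 116 and 167 in KO-labelled and 119, 151 and 123 in WT-labelled libraries, which overlapped (0.43 ± 0.31). Of 14 tested suppressive effector genes limma, edgeR and DESeq2 called 0, with 1 at an unadjusted p of 0.05 in limma. That gene was Lgals9, which encodes galectin-9, with 360.0, 271 and 354 in KO-labelled and 643, 361 and 447 in WT-labelled libraries (-0.53 ± 0.21).

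Granulocyte genes leaned the same way as the PMN marker sum, which is not a separate check, since Csf3r is in both that sum and the mature neutrophil list. Csf3r made up most of the sum, with 2183 of 2459 in KO-labelled library 1 and 2247 of 2753 in WT-labelled library 1. Of 15 tested mature neutrophil genes 14 lay below 0 with a median of -0.61, and of 15 tested secondary granule genes 14 lay below 0 with a median of -0.54. limma, edgeR and DESeq2 called 0 in both lists, with 2 lower at an unadjusted p of 0.05 in limma in each. The replicate SD of the median was 0.63 for the mature neutrophil list and 0.92 for the secondary granule list, larger than the medians. Csf3r, the G-CSF receptor, had 2183, 1608 and 1909 in KO-labelled and 2247, 2617 and 2375 in WT-labelled libraries, without overlap (-0.35 ± 0.15, limma adjusted p 0.510).

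Interferon-induced genes lay mostly below 0, with no call in limma. Of 30 type I interferon genes 29 were tested and all 29 lay below 0, with differences from -1.22 to -0.07 and a median of -0.41. limma and edgeR called 0, limma gave 8 lower at an unadjusted p of 0.05, DESeq2 called Xaf1, and 3 genes did not overlap, where 5.12% of all tested genes were lower without overlap. Xaf1, a pro-apoptotic interferon target, had 90.2, 34.8 and 85.1 in KO-labelled and 171, 176 and 116 in WT-labelled libraries (-1.22 ± 0.29, limma adjusted p 0.110). Zbp1, a sensor of nucleic acids, had 345, 169 and 302 in KO-labelled and 782, 607 and 299 in WT-labelled libraries, which overlapped (-0.999 ± 0.340), and Oasl2, of the oligoadenylate synthetase family, had 954, 450.5 and 396 in KO-labelled and 1474, 1397 and 695 in WT-labelled libraries (-1.02 ± 0.35). In both, WT-labelled library 3 was far below the other 2 WT-labelled libraries. Of 19 tested interferon gamma genes 17 lay below 0 with a median of -0.42 and no call by any of the 3 tools, with 3 at an unadjusted p of 0.05 in limma. The smallest p belonged to Irgm2, an immunity-related GTPase, at 139.6, 80.2 and 156 in KO-labelled and 292, 289 and 135 in WT-labelled libraries (-0.90 ± 0.36, limma adjusted p 0.465). Its start region is shown as the example of this list, since 11 of the 16 listed interferon gamma genes with a window (68.8%) and 12 of the 22 type I interferon genes (54.5%) hold GAAANNGAAA, the core of the interferon-stimulated response element, on either strand. None of the 17 called genes with a window held it, against 350 of 8847 tested genes (3.96%). The window is read from the plus strand of chr11:58214727-58215026 in GRCm38.p6, from RefSeq, with the match in capitals.
Irgm2: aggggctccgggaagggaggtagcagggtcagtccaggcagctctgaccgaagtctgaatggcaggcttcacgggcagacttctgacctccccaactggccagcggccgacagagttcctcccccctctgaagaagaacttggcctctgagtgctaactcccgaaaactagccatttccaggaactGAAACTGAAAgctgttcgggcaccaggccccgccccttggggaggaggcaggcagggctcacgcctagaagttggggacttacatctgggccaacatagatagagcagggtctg

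Toll-like receptor genes also lay mostly below 0. Of 20 tested, 18 lay below 0 with a median of -0.28, 6 were lower without overlap (5.12% of all tested genes were), and limma, edgeR and DESeq2 called 0, with 4 at an unadjusted p of 0.05 in limma. Myd88, the adaptor shared by most of these receptors, had 722, 611 and 714 in KO-labelled libraries, against 1037, 1125 and 973 in WT-labelled libraries (-0.62 ± 0.19, limma adjusted p 0.277). Tirap, the bridging adaptor, had 123, 159 and 147 in KO-labelled and 259.6, 165 and 256 in WT-labelled libraries (-0.64 ± 0.20), and Traf6, the ubiquitin ligase after them, had 319, 314 and 337 in KO-labelled and 418, 357 and 415 in WT-labelled libraries (-0.29 ± 0.12). In the fit with the NK marker covariate the median of the type I interferon list was -1.16, that of the interferon gamma list -1.09 and that of the Toll-like receptor list -0.60.

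**Figure D4:**
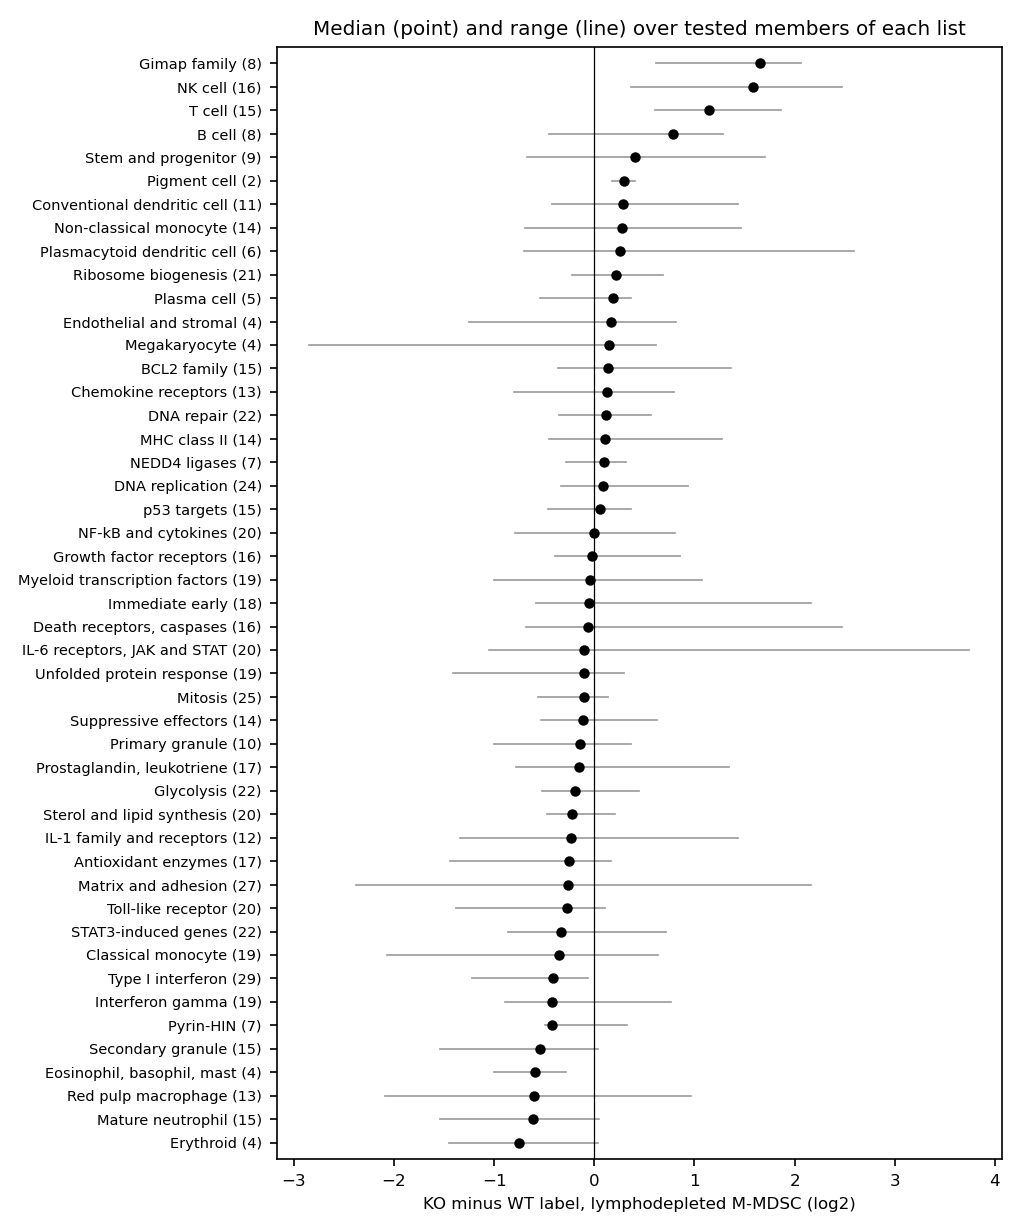
Median (point) and range (line) of the log2 difference, KO-labelled minus WT-labelled lymphodepleted M-MDSCs, over the tested members of 47 gene lists, with the number tested in parentheses and a vertical line at 0. The Gimap, NK cell and T cell lists lie wholly above 0, as does the melanoma list with 2 genes tested. The type I interferon list lies wholly below 0, as does the eosinophil, basophil and mast cell list with 4 tested. The mitosis and DNA replication lists centre near 0.

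Dendritic cell genes lay above 0 in part. Of 14 conventional dendritic cell genes 11 were tested and 10 lay above 0, with a median of 0.29 (0.05 to 0.55 without 1 library and -0.35 with the NK covariate), 5 higher at an unadjusted p of 0.05 and no call by limma or edgeR, and DESeq2 called Clec9a and Flt3. Clec9a, the receptor for dead cells on cross-presenting dendritic cells, had 128, 119.9 and 104 in KO-labelled libraries, against 56.6, 31.7 and 43.1 in WT-labelled libraries (1.43 ± 0.27, limma adjusted p 0.0594). Flt3, the growth factor receptor of dendritic cell precursors, had 376, 181 and 339 in KO-labelled and 165, 156 and 149 in WT-labelled libraries (0.86 ± 0.22). Of 10 plasmacytoid dendritic cell genes 6 were tested, 3 above and 3 below 0, with 2 higher and 1 lower without overlap and no call by limma or edgeR. The list's Siglech, a marker of these cells that DESeq2 called, had 67.4, 55.1 and 60.9 in KO-labelled and 13.3, 13.2 and 4.31 in WT-labelled libraries (2.60 ± 0.65, adjusted p 0.118). None of these 3 genes overlapped between the labels. The 14 tested MHC class II genes had a median of 0.11, which was -0.14 to 0.49 without 1 library.

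Every proliferation gene of the mitosis and DNA replication lists overlapped between the labels. The 25 mitotic genes had a median of -0.10 with 6 above and 19 below 0, the 24 DNA replication genes had a median of 0.09, and limma, edgeR and DESeq2 called 0 in both lists, with 0 at an unadjusted p of 0.05 in limma. Mki67, the proliferation marker, had 5911, 13686 and 11275 in KO-labelled and 11444, 8177 and 14590 in WT-labelled libraries, so that the lowest library was KO-labelled and the highest WT-labelled (-0.19 ± 0.60). The SD of the mitotic median between replicates was 0.52, and with the NK covariate the median was 0.98. Of 17 tested antioxidant genes 16 lay below 0 with a median of -0.25 and limma and edgeR called 0, with 4 lower at an unadjusted p of 0.05 in limma, while DESeq2 called Srxn1. Srxn1, which restores oxidised peroxiredoxins, had 26.6, 15.4 and 12.1 in KO-labelled and 54.4, 45.6 and 44.8 in WT-labelled libraries (-1.44 ± 0.34, limma adjusted p 0.0985). Of 21 tested ribosome biogenesis genes 17 lay above 0 with a median of 0.22, led by the nucleolar gene Nop2 at 215, 257 and 221 in KO-labelled and 141, 169 and 145 in WT-labelled libraries (0.60 ± 0.16, adjusted p 0.170), and none of the 3 tools called a member, with 4 at an unadjusted p of 0.05 in limma. Atr, the replication stress kinase, had 374, 423 and 336 in KO-labelled and 257, 252 and 252 in WT-labelled libraries (0.57 ± 0.14, adjusted p 0.108), and was called by DESeq2 but not by edgeR.

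By position, 7 of the 23 called genes (30.4%) lie on chromosome 5, where Il6 itself lies, and that chromosome holds 719 of the 11052 tested genes (6.51%). The most on any other chromosome was 5, on chromosome 1, with 3 higher and 2 lower among its 646 tested genes. All 7 called genes on chromosome 5 rose. In order along the chromosome (GRCm38) they include Il6, Jakmip1 at 7.01 Mb from it, Arap2 at 32.6 Mb, Txk at 42.7 Mb, Gm15446 at 79.9 Mb and Dtx1 at 90.7 Mb. Among the 140 tested genes within 10 Mb of Il6, other than Il6, Jakmip1 was the 1 called, 22 passed an unadjusted p of 0.05 (15.7%, against 8.94% of all tested genes) and 13.6% did not overlap between the labels (against 11.1%). Their median absolute difference was 0.17, against 0.18 over all tested genes. Over the whole of chromosome 5, 10.99% of tested genes did not overlap between the labels, against 11.1% of all tested genes. In untreated M-MDSCs the share of calls on chromosome 5 was smaller, with 42 of 465 called genes (9.03%). Those 42 were 5.84% of the tested genes of the chromosome, where 4.21% of all tested genes were called. The KO-labelled strain name gives an allele of 129S2 origin in a B6 background, and sequence differences between the strains were not analysed here.

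The same labels were compared in untreated M-MDSCs, with other libraries but in the same fit, so each gene has 1 SE for both comparisons. There 465 genes passed (4.21%). All 23 called genes had the same sign there, 22 of them without overlap (33.7% of all tested genes did not overlap in that comparison), and 15 were called. That is 65.2% of the 23 and 3.23% of the 465. Gm15446 had 30.1, 25.8 and 26.5 in KO-labelled untreated libraries and no read in the 3 WT-labelled ones. Arap2 had 613, 712 and 904 in KO-labelled and 339, 315 and 301 in WT-labelled untreated libraries, a log2 difference of 1.20 ± 0.16, against 1.24 ± 0.16 after lymphodepletion. Il18r1 had 704, 684 and 757 in KO-labelled and 261, 276 and 236 in WT-labelled untreated libraries (1.47 ± 0.20). 1700112E06Rik was the exception with an overlap, with 59.5, 46.2 and 36.7 in KO-labelled and 41.6, 32.5 and 48.1 in WT-labelled untreated libraries (0.21 ± 0.32). The NK marker sum moved with the label in untreated M-MDSCs as well, at 5584 to 8233 in KO-labelled and 1390 to 1674 in WT-labelled libraries. In lymphodepleted PMN-MDSCs that sum was 286 to 421 in KO-labelled and 61.0 to 177 in WT-labelled libraries. The 16 tested NK cell genes all lay above 0 in PMN-MDSCs, with a median of 1.58, and limma called 0 of them there.

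**Figure D5:**
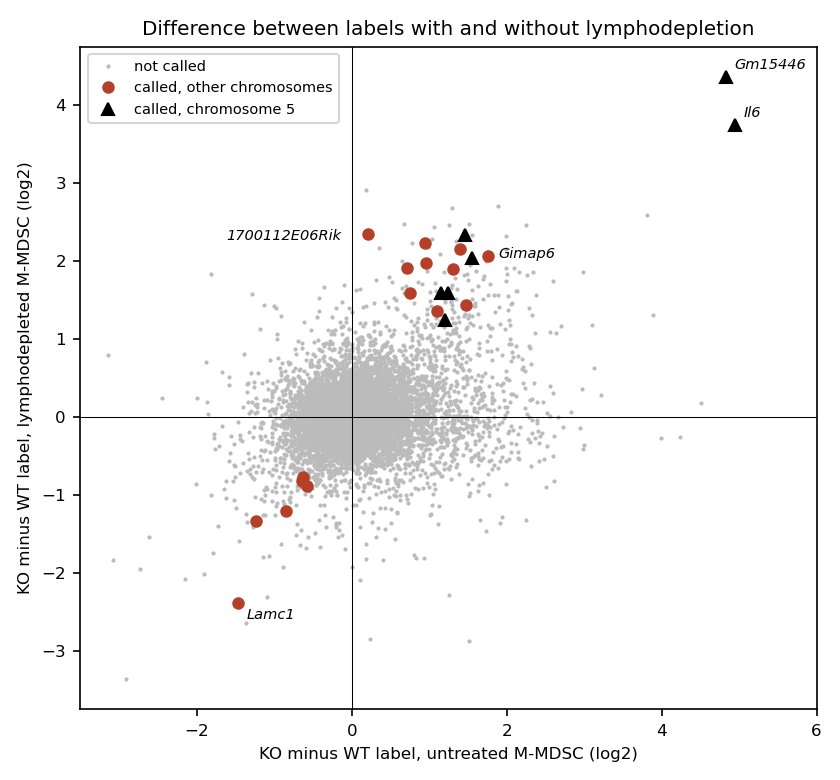
Log2 difference between KO-labelled and WT-labelled M-MDSCs for each of 11052 genes, in untreated mice on the horizontal axis and lymphodepleted mice on the vertical axis. Grey points were not called, circles are called genes on other chromosomes, triangles are the 7 called genes on chromosome 5, and all 23 called genes have the same sign on both axes.

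A test of the difference between the 2 treatments, the interaction of label and treatment in the 12 M-MDSC libraries, passed for 1 gene (0.00905%), with 1368 at an unadjusted p of 0.05 (12.4%). That gene was Nedd4, a ubiquitin ligase of receptors and signalling proteins. After lymphodepletion Nedd4 had 257, 442 and 336 in KO-labelled and 443, 364 and 429 in WT-labelled libraries, which overlapped (-0.28 ± 0.20). In untreated M-MDSCs it had 365, 356 and 464 in KO-labelled and 118, 84.9 and 116 in WT-labelled libraries (1.89 ± 0.20), and the interaction was -2.17 ± 0.29 (SE, limma adjusted p 0.0315). The next smallest p belonged to Nkg7, a granule gene of cytotoxic cells, with 110.2, 143 and 144 in KO-labelled and 131, 81.2 and 98.3 in WT-labelled lymphodepleted libraries and 458, 579.9 and 506 in KO-labelled and 109.9, 102 and 114 in WT-labelled untreated libraries (interaction -1.86, adjusted p 0.0519). None of the 23 called genes passed the interaction test. The count of 1 was 0 without lymphodepleted KO-labelled library 1 or 3 or WT-labelled library 1 or 3. It was 7 without lymphodepleted WT-labelled library 2. The 4 fits without a library that gave 0 had 875 to 2080 genes at an unadjusted p of 0.05. No untreated library was left out. The count was also 0 with the replicate block or quantile scaling, with 1208 and 1263 genes at that p in that order. edgeR called 2 and DESeq2 73.

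In lymphodepleted PMN-MDSCs 2 genes passed (0.0181%), Il6 and F13a1. The median SE was larger there, 0.40 against 0.21 in M-MDSCs, as was the median absolute log2 difference, 0.34 against 0.18. WT-labelled PMN-MDSC library 1 held 3249647 reads, so few calls do not show that the labels were alike in PMN-MDSCs. Of the 23 called genes 19 had the same sign in PMN-MDSCs and 4 did not overlap (10.4% of all tested genes did not overlap in that comparison). Il6 was the 1 called. The interaction of label and cell type under lymphodepletion passed for 2 genes (0.0181%), F13a1 and Il18r1, with 961 at an unadjusted p of 0.05 (8.7%). F13a1, with the values given above, differed by -0.11 ± 0.21 between the labels in M-MDSCs and by -2.84 ± 0.35 in PMN-MDSCs, an interaction of 2.73 ± 0.37 (SE, limma adjusted p 0.0021). Il18r1 had 471, 617 and 497 in KO-labelled and 619.6, 534 and 567 in WT-labelled PMN-MDSC libraries (-0.12 ± 0.19), against the rise of 1.44 ± 0.20 in M-MDSCs, an interaction of 1.57 ± 0.27 (adjusted p 0.042). The count of 2 was 1 without KO-labelled M-MDSC library 1 or 3 or WT-labelled M-MDSC library 2 or 3. No PMN-MDSC library was left out. edgeR called 1 and DESeq2 108, and the replicate block gave 1. Bcl2, which passed neither interaction test, had 178, 127 and 140.4 in KO-labelled and 44.9, 89.0 and 66.1 in WT-labelled PMN-MDSC libraries (1.18 ± 0.36).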

How the data were processed

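Total RNA libraries of sorted splenic MDSCs were analysed from 1 table of 24 libraries. Per the submitters' processing notes, tools named are STAR 2.5.3a, HTSeq 0.6.1 and DESeq2, with the build mm10. The sources used here name neither the annotation nor the strand setting of the counting. The deposited values are normalized read counts, that is signal in which the authors divided reads per gene by a factor per library. All values above 0 were whole multiples of the smallest one in their library (tolerance 0.001), so reads and depth were recovered.

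The main test was limma 3.58.1 with a mean-variance trend on log2(normalized count + 1), on genes with a count of 10 or more in 3 of the 6 libraries. It took 1 mean per group over 12 M-MDSC libraries (8 residual degrees of freedom). The labels in PMN-MDSCs were compared in a fit of the PMN-MDSC libraries alone. All 24 libraries were used for the interaction of label and cell type. Fold changes of low genes are understated by the added 1. Benjamini-Hochberg adjusted p under 0.05 was a call. edgeR 4.0.16 and DESeq2 1.42.0 (R 4.3.3) on recovered reads were alternatives. So were other pseudocounts, no filter, quantile scaling, library weights, a replicate block and leaving out 1 lymphodepleted M-MDSC library at a time. Counts in the contrast with PMN-MDSCs used 22 libraries, since the recovery was not accepted for 2. The main limma comparison of the labels in lymphodepleted M-MDSCs was run on simulated data, and the other fits were not. Values with ± are SE of log2 differences.

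Genes named are called genes whose higher group averaged 30 or more (unnamed gene models left out), key genes, the called members of each list or its 3 smallest p, the 5 smallest p of each interaction and called genes within 10 Mb of Il6. Exceptions are marked, and some genes that meet this rule are not reported here. Members and lists were chosen with earlier results of these data known. Of 23479 genes, 23339 were placed on GRCm38, by symbol, synonym or GENCODE.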

Additional observations from a re-analysis of the deposited data

Results flagged for a closer look

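The 3 results given here differed between conditions by a test of the difference itself. Nedd4 differed between the labels by treatment in M-MDSCs, with an interaction of -2.17 (lymphodepleted minus untreated difference, log2, limma adjusted p 0.0315). F13a1 differed between the labels by cell type under lymphodepletion, with an interaction of 2.73 (M-MDSC minus PMN-MDSC difference, adjusted p 0.0021). Il18r1 did so with an interaction of 1.57 (adjusted p 0.042). In F13a1 the difference lay in PMN-MDSCs and in Il18r1 in M-MDSCs. What underlies these differences was not tested.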

How the results depend on the processing

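The count of 23 called genes was 7 with a replicate block, 14 with library weights, 173 in DESeq2, 1 in a fit of all 24 libraries and 93 with the NK covariate, chosen after seeing the data. A limma fit of the 6 libraries alone called 0, with 640 at an unadjusted p of 0.05. Leaving out 1 library gave 0 to 56. Only lymphodepleted M-MDSC libraries were left out, also for the interactions, and no untreated or PMN-MDSC library was. The other settings gave 22 to 27, and the 23 genes kept their sign in all. The treatment interaction, 1 gene, gave 2 with pseudocount 5, library weights or edgeR, 73 in DESeq2, 0 to 7 without 1 library, and 0 with quantile scaling, the replicate block or all 24 libraries, with 1263, 1208 and 448 at an unadjusted p of 0.05 in that order. The cell type interaction, 2 genes, gave 1 with pseudocount 5, the replicate block or edgeR, 3 with quantile scaling, 4 with library weights, 108 in DESeq2, 5 with the NK covariate and 1 to 2 without 1 library. Uncalled differences that changed sign, given as ranges without 1 library, were Csf1r (-0.25 to 0.14), F13a1 (-0.30 to 0.0119), Mki67 (-0.44 to 0.16), Jak2 (-0.10 to 0.11), Fas (-0.12 to 0.29) and Ly6c2 (-0.65 to 0.33), and with the covariate Nedd4 (0.12), Mki67 (0.98), Jak2 (-0.21) and Fas (-0.29). Medians of lists described above that changed sign with the covariate were those of conventional (-0.35) and plasmacytoid (-0.34) dendritic cell, MHC class II (-0.95), secondary granule (0.16), mitotic (0.98) and BCL2 family genes (-0.32), the last also in edgeR (-0.01) and with quantile scaling (-0.05). The causes were not tested.

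Replicate numbers did not pair lymphodepleted KO-labelled and WT-labelled M-MDSC libraries, whose same-numbered deviations correlated at -0.14, -0.12 and -0.19, none the best match. Same-numbered M-MDSC and PMN-MDSC libraries correlated at 0.20, 0.31 and 0.05 in the KO-labelled and -0.12, 0.22 and 0.19 in the WT-labelled group, the best match for all but WT-labelled library 1, and not above 0.1 in every pair. The block gave 7 calls instead of 23. Depth limits genes such as Il6, with 7 reads in the WT-labelled group, and 3 libraries a group limit all calls.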

Other observations

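Several lists beside those described above held genes that lay apart between the labels without a call in limma. Among 19 tested myeloid transcription factors limma and edgeR called 0, with 3 higher and 1 lower at an unadjusted p of 0.05 in limma, and DESeq2 called Bach2 and Irf8. Bach2, a repressor of B cell and myeloid differentiation genes, had 124, 109 and 95.3 in KO-labelled libraries, against 33.3, 61.9 and 65.5 in WT-labelled libraries, without overlap (1.07 ± 0.24, limma adjusted p 0.0822). Csf2rb, the shared beta chain of the GM-CSF receptor, had 1845, 1582 and 1886 in KO-labelled and 2513, 2163 and 2307 in WT-labelled libraries, lower without overlap (-0.40 ± 0.13, adjusted p 0.329). Pecam1, an adhesion molecule of endothelium and myeloid cells, had 180.5, 199 and 244 in KO-labelled and 118, 126 and 108 in WT-labelled libraries, higher without overlap (0.81 ± 0.16, adjusted p 0.0598). DESeq2 called Pecam1, as it did Tnfsf14 and Ccdc122 among the genes described next, and edgeR called none of these 3. Of 9 tested stem and progenitor genes 6 lay above 0 with a median of 0.41, and among them Sox4 had 31.3, 63.2 and 55.5 in KO-labelled and 17.7, 16.2 and 9.48 in WT-labelled libraries (1.70 ± 0.55) and Cd34 had 84.5, 74.5 and 142 in KO-labelled and 46.0, 44.9 and 17.2 in WT-labelled libraries (1.52 ± 0.49).

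Of 22 tested glycolysis genes 17 lay below 0 with a median of -0.19, and limma, edgeR and DESeq2 called 0, with 4 at an unadjusted p of 0.05 in limma. The smallest p belonged to Slc2a1, the glucose transporter, with 152, 126 and 147 in KO-labelled and 230.2, 209.7 and 175 in WT-labelled libraries (-0.52 ± 0.19, limma adjusted p 0.393). Tnfsf14, the TNF family ligand LIGHT, had 35.1, 28.4 and 45.9 in KO-labelled and 84.9, 60.3 and 85.3 in WT-labelled libraries (-1.06 ± 0.25, adjusted p 0.0916), and its difference in PMN-MDSCs had the other sign (0.85 ± 0.25). Ccdc122, a gene whose role is not described here, had 37.0, 34.0 and 41.0 in KO-labelled and 18.9, 11.6 and 11.2 in WT-labelled lymphodepleted M-MDSCs (1.40 ± 0.31, adjusted p 0.0865). In untreated M-MDSCs it had 15.7, 18.5 and 23.8 in KO-labelled and 36.9, 41.6 and 36.8 in WT-labelled libraries (-0.97 ± 0.31), with no overlap in either treatment and opposite signs. Neither the treatment interaction of Ccdc122 nor the cell type interaction of Tnfsf14 passed an adjusted p of 0.05 in limma.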
